A study of Mus musculus and Homo sapiens with 4 samples.

Results

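Mitochondria carry their own ribosomes, whose small and large subunits are each built on 1 rRNA encoded in mitochondrial DNA, and they decode their messages with a set of tRNAs from the same DNA. The members described here are those RNAs: MT-RNR1 (small-subunit rRNA), MT-RNR2 (large-subunit rRNA) and 22 tRNAs of human mitochondria, and mt-Rnr1, mt-Rnr2 and 22 tRNAs of mouse mitochondria. They were chosen by Ensembl transcript identifier, and all 48 were found, among 288251 transcripts listed in all (24 of 194871 human and 24 of 93380 mouse). Neither library of a pair listed a coding region for any of them, so each value is the count over the whole transcript.

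The mitochondrial ribosome is a particle separate from the cytosolic one. Its rRNAs and proteins differ from those of the cytosolic ribosome, and a tag on a cytosolic ribosomal protein is not part of it. Cycloheximide and emetine both stop elongation by cytosolic ribosomes, and both are used to block cytosolic translation while mitochondrial translation is followed. In vertebrate mitochondrial DNA the tRNA genes lie between the rRNA and messenger genes, and the long primary transcript is cut at the tRNAs to release its parts. Reads on an rRNA or a tRNA in a footprint library are fragments left after nuclease digestion. They were not taken here as footprints on a coding sequence.

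The 4 libraries form 2 pairs with 1 library in each group. E14 mouse embryonic stem (ES) cells of the 129/Ola background, kept feeder-free with LIF, were exposed for 60 s to cycloheximide (100 µg/ml) or to emetine, whose dose the labels do not give, and ribosomes were pelleted after RNase I digestion. HEK cells, a human embryonic kidney line, were grown in DMEM with 10% FBS. Their digested lysate was fractionated by size exclusion chromatography to give the input, and the bound library went through a further streptavidin step, which holds assembled cytosolic ribosomes by an affinity tag carried on their large subunit. The labels do not name the tagged protein, say whether the HEK line is 1 clone, give a drug for the HEK cells, or say whether the libraries of a pair share a culture. The files do not pair identifiers with gene names, so markers of ES or HEK cells were not looked up.

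All transcript counts summed to 17446956 for HEK input, 30208713 for HEK bound, 342552347 with cycloheximide and 188700177 with emetine. Transcripts overlap, so these sums need not be numbers of sequenced reads, and shares below are of summed counts. Ratios between the libraries of a pair were divided by the median ratio of coding regions with at least 100 reads summed over the pair, so a scaled ratio of 1 is that of the median coding region. By this measure the bound library was 1.99-fold deeper than the input and the cycloheximide library 1.76-fold deeper than the emetine library. With 1 library per group there is no spread between replicates and no test of a condition. The intervals below are exact (Clopper-Pearson) 95% intervals that cover counting error only, and amplified copies of a fragment are not separate molecules. In libraries made from many cells, fewer cells holding an RNA and less of that RNA per cell cannot be told apart.

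**Figure D1:**
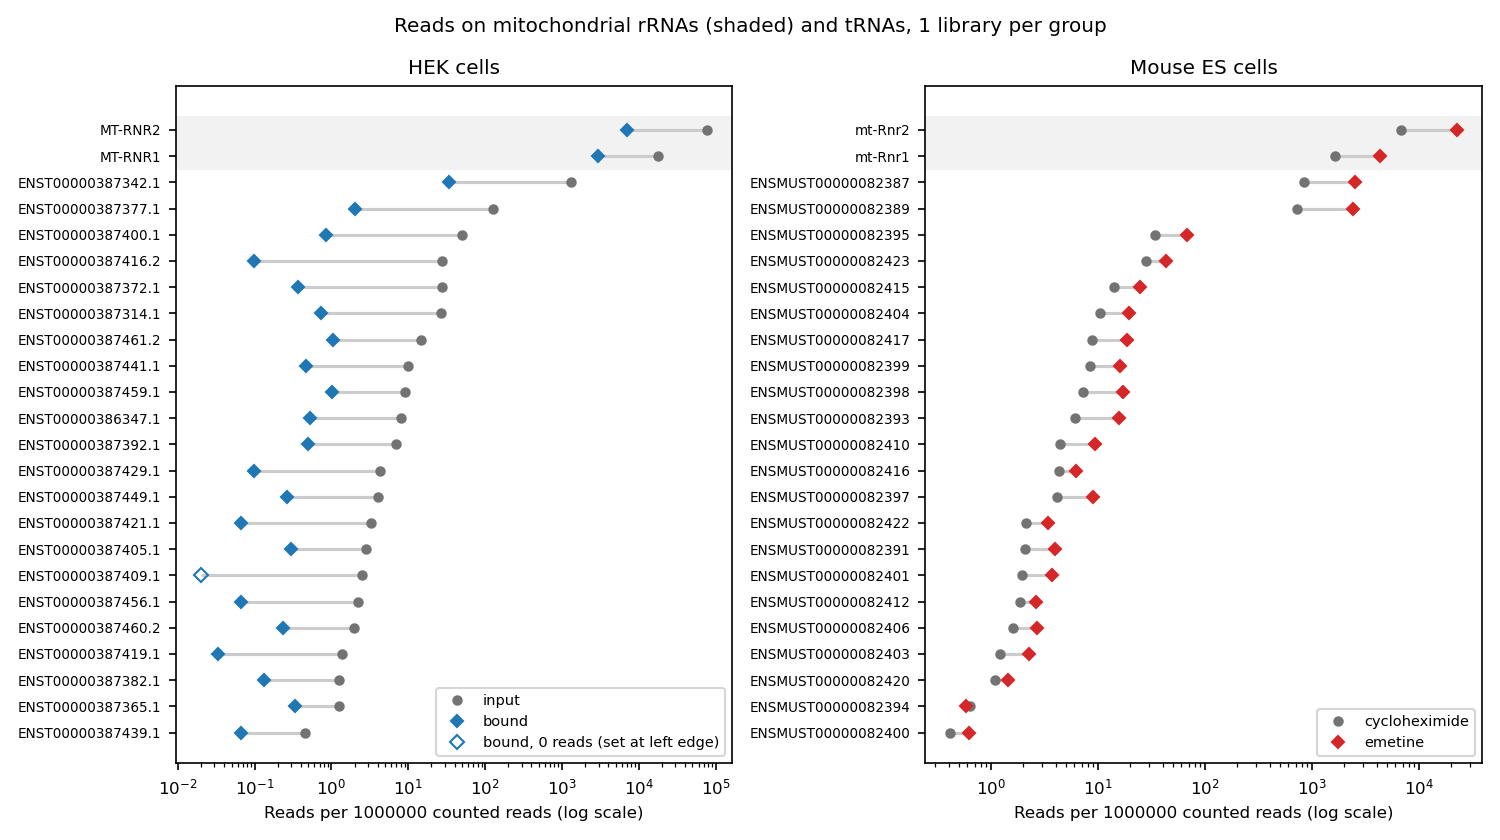
Reads per 1000000 counted reads (log scale) for the 2 rRNAs (shaded) and 22 tRNAs of each species, 1 point per library. In HEK cells all 24 RNAs lie lower in the bound library than in the input. The share of all features that do so on this scale was not computed. By scaled ratio, 55.5% of features with at least 10 summed reads lie below 1. In ES cells the rRNAs and the tRNAs ENSMUST00000082387 and ENSMUST00000082389 stand well above the other 20 tRNAs in both libraries.

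Most of the reads on these RNAs fell on the rRNAs, and their share of a library differed widely between the libraries. In the HEK input the rRNAs held 9.54% of all counts (95% interval 9.53 to 9.55), against 1.003% (0.999 to 1.01) in the bound library. In ES cells they held 0.842% (0.841 to 0.842) with cycloheximide and 2.67% (2.67 to 2.67) with emetine. The larger share of each pair was thus in the input and in the emetine library, which are the shallower library of their pair. The mitochondrial tRNAs held 0.163% of HEK input counts (0.161 to 0.165) and 0.00427% of bound counts (0.00404 to 0.00451). In ES cells the tRNAs held 0.170% with cycloheximide (0.170 to 0.171) and 0.517% with emetine (0.516 to 0.518). The tRNA shares were therefore ordered as the rRNA shares were within each pair. Set against coding-region reads in place of all counts, the rRNAs had 21.8 reads per 100 coding reads before capture and 1.97 after it, and 1.77 with cycloheximide and 6.40 with emetine. The human and mouse libraries were prepared differently (size exclusion chromatography against pelleting), so shares were not compared between species. Among counts of features without a coding region, the 24 human RNAs held 21.9% before capture and 2.67% after it, and the 24 mouse RNAs 2.29% with cycloheximide and 6.57% with emetine.

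**Figure D2:**
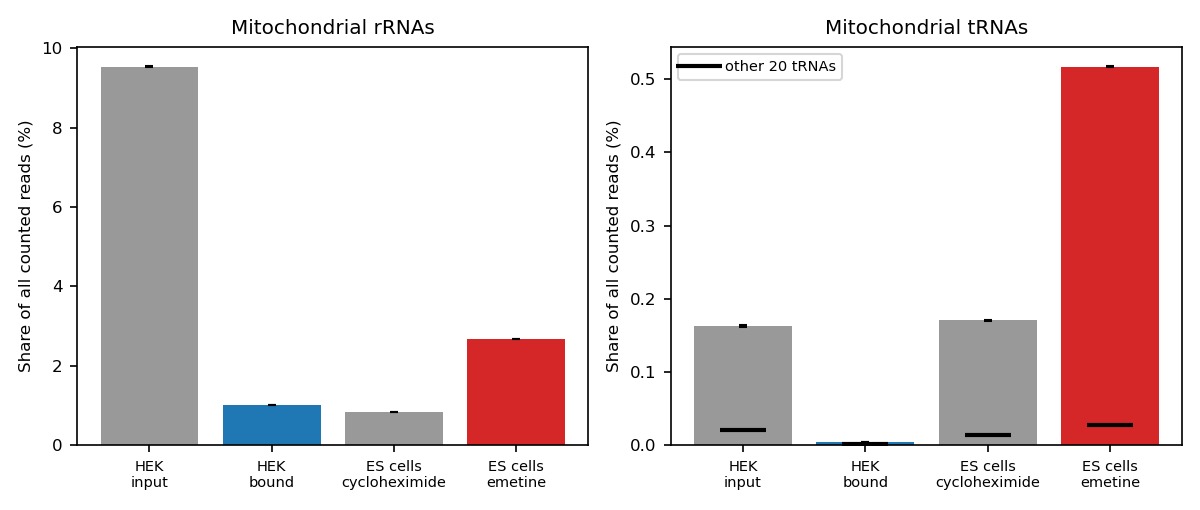
Share of all counted reads (%) held by the mitochondrial rRNAs and by the mitochondrial tRNAs in each of the 4 libraries, with exact 95% counting intervals; the black lines mark the 20 tRNAs other than the 2 most abundant of each species. The rRNA share is 9.54% before capture and 1.003% after it in HEK cells, and the 2 most abundant tRNAs make up most of the tRNA share of each library.

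Comparing the bound library with the input asks whether RNA fragments travel with the tagged large subunit. MT-RNR2, the large-subunit rRNA (ENST00000387347.2), had 1355851 input reads and 215008 bound reads. It had the most reads of all human transcripts in both libraries. Scaled to coding regions it was 12.5-fold lower in the bound library (interval 12.5 to 12.6). MT-RNR1, the small-subunit rRNA (ENST00000389680.2), had 308581 input reads and 87852 bound reads, and ranked 2 and 4 among all transcripts. It was 6.98-fold lower in the bound library (6.93 to 7.04). Both rRNAs were therefore strongly reduced relative to coding regions, but not by the same factor. The large-subunit rRNA had 4.39 reads per read of the small-subunit rRNA before capture and 2.45 after it, a comparison that does not depend on the scaling. Together the rRNAs were 10.9-fold lower (10.9 to 11.0). Over the features that reached 100 summed reads, 0.231% lay below MT-RNR2 and 0.297% below MT-RNR1 in ratio.

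As a sum, the human mitochondrial tRNAs were lower still in the bound library. Summed, they had 28380 input reads and 1290 bound reads, 43.7-fold lower (41.4 to 46.3). The rRNAs had 58.6 reads per tRNA read before capture and 235 after it, so the tRNA sum was reduced 4.003 times as much as the rRNA sum. Of the 22 tRNAs, 11 had at least 100 summed reads, and 11 of these 11 were at least 2-fold lower after capture, where 1.65% of all features and 2.58% of features without a coding region were. All 11 were also at least 4-fold lower, against a background of 0.457% of all features and 0.855% of those without a coding region. None was at least 2-fold higher (0.113% of all features). Their median scaled log2 ratio was -5.37 (from -8.02 to -3.31), while the median over all features was 0.0015. The minimum of 100 reads was applied to the sum over both libraries. Apart from ENST00000387342.1, with 1011 bound reads, each of the 11 had at most 61 bound reads. Those tRNAs thus reached the minimum through the input, the library where they were higher. The count of 11 of 11 is therefore a description only. The tRNAs below the minimum are described further on.

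The tRNAs differed from each other in how far they fell short of coding regions. ENST00000387342.1 was the most abundant, with 22577 input reads and 1011 bound reads. It alone held 79.6% of the tRNA reads of the input and 78.4% of those of the bound library, and it was 44.4-fold lower (interval 41.7 to 47.3). ENST00000387377.1, second in abundance, had 2195 input reads and 61 bound reads and was 71.5-fold lower (55.5 to 93.9). These intervals do not overlap, and both lie beyond those of the rRNAs. Without these 2 tRNAs, a choice made after seeing the data, the tRNA sum was 32.9-fold lower (28.7 to 37.9) and the median log2 ratio of the 9 others with at least 100 reads was -4.57. The reduction of the class was thus also present without its most abundant members. The lowest ratio belonged to ENST00000387416.2, with 482 input reads and 3 bound reads, a ratio of 0.00313 (0.000643 to 0.00920). Next came ENST00000387372.1, with 475 and 11 reads, 85.9-fold lower (47.5 to 173). The intervals of these lowest tRNAs overlap. At the other end, ENST00000387459.1 had 158 input reads and 31 bound reads and was 10.1-fold lower (6.86 to 15.4). ENST00000387392.1 had 119 and 15 reads and was 15.8-fold lower (9.19 to 29.1). The ratios of this last pair had intervals that overlap each other and that of MT-RNR2. At this depth these tRNAs could thus not be told from the large-subunit rRNA. The interval of ENST00000387459.1 also contains that of MT-RNR1, so it could not be told from the small-subunit rRNA either.

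The 11 human tRNAs with fewer than 100 summed reads had 8 to 75 input reads and 0 to 10 bound reads. After capture all 11 were at least 4-fold lower, where 1.94% of all features with 10 to under 100 summed reads and 2.32% of those without a coding region were. Their sum was 18.4-fold lower (445 and 48 reads, interval 13.7 to 25.4). For the 10 with reads in both libraries the reductions ran from 4.37-fold to 56.7-fold, with a median of 14.3-fold. The smallest reduction was thus less than that of either rRNA, on few reads. ENST00000387409.1, with 44 input reads, was the 1 tRNA without a read in the bound library, and set against a floor of 3 bound reads it was at least 29.2-fold lower; it is named because its count is 0. Over all 22 tRNAs, with that count at its bound, the median log2 ratio was -4.70. Counts across the 22 tRNAs kept a similar order in both libraries (Spearman's rho 0.72 over 22 tRNAs that share library and depth), from 8 to 22577 reads in the input. For 19 of the 22 the whole counting interval lay below a ratio of 0.5, which held for 1.09% of all features with at least 10 summed reads and 1.55% of those without a coding region; a feature with a count of 0 has no interval and was not counted. All 22 had a ratio below 1, as did 55.5% of these features and 56.6% of those without a coding region.

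**Figure D3:**
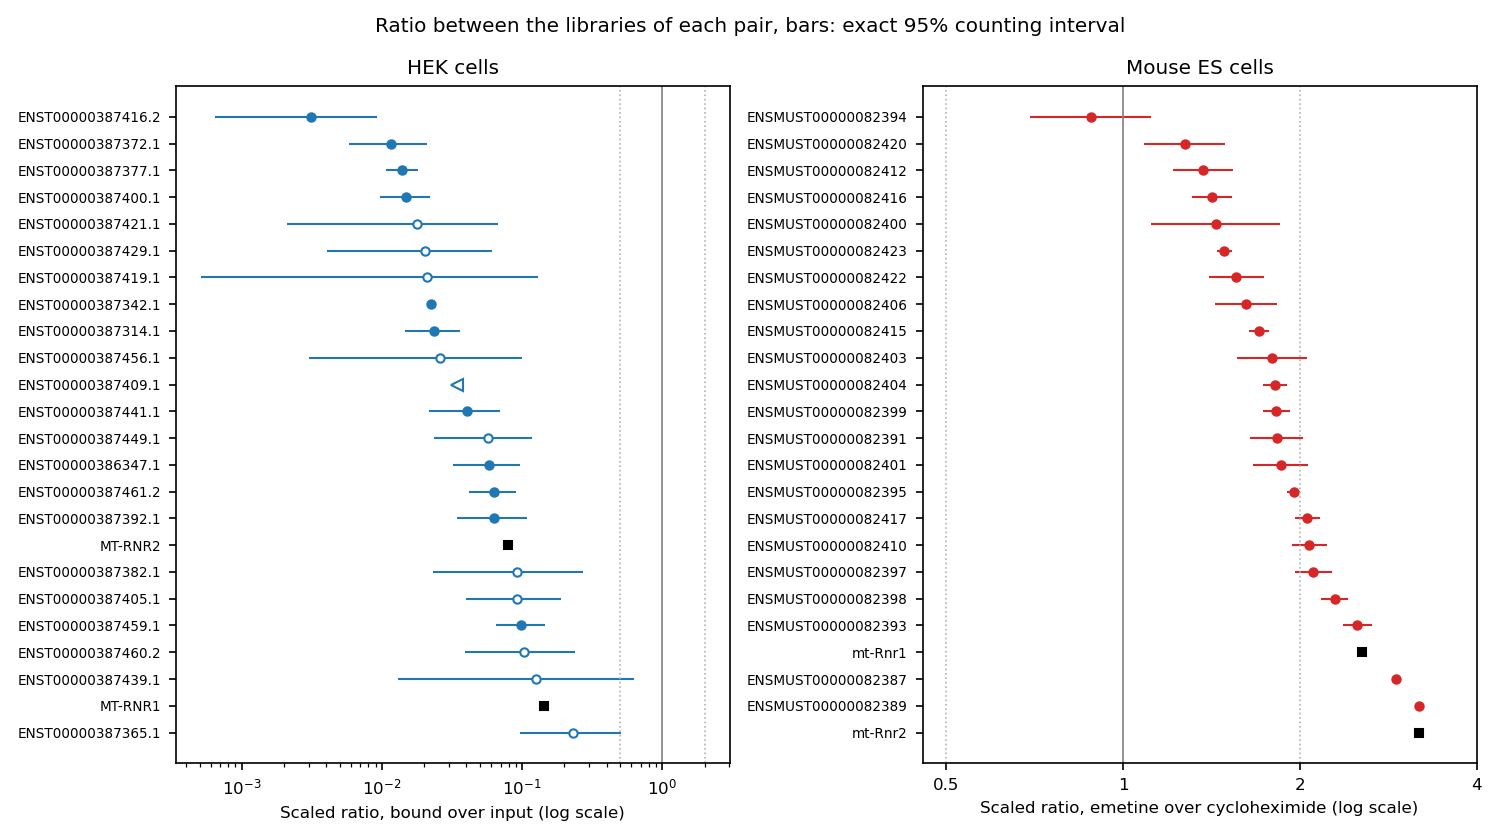
Scaled ratio (log scale) of bound over input in HEK cells and of emetine over cycloheximide in ES cells for each rRNA (black squares) and tRNA (circles, open where fewer than 100 reads were summed), with exact 95% counting intervals. The open triangle is the bound for the tRNA with 0 bound reads; solid and dotted lines mark ratios of 1, 0.5 and 2. All human RNAs lie left of 1, where 55.5% of features with at least 10 summed reads lie, and 23 of the 24 mouse RNAs lie right of it, where 53.3% of features with at least 100 summed reads lie.

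Comparing the inhibitors in ES cells asks whether read numbers shift with the drug. Both mitochondrial rRNAs were higher relative to coding regions with emetine. mt-Rnr2 (ENSMUST00000082390, positions 1094 to 2675 of the mitochondrial chromosome in GRCm38.p6) had 2321590 cycloheximide reads and 4223386 emetine reads, although the emetine library was the shallower. It was 3.20-fold higher with emetine (interval 3.19 to 3.20) and had the most reads of all mouse transcripts in both libraries. mt-Rnr1 (ENSMUST00000082388, positions 70 to 1024) had 561095 cycloheximide reads and 814573 emetine reads, 2.55-fold higher (2.54 to 2.56). Its rank among all mouse transcripts was 32 with cycloheximide and 2 with emetine. The rRNA sum was 3.07-fold higher (3.07 to 3.08). Of all features with at least 100 summed reads, 0.276% had a higher ratio than mt-Rnr2 and 0.948% a higher one than mt-Rnr1.

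The difference was larger for the large-subunit than for the small-subunit rRNA. The large-subunit rRNA had 4.14 reads per small-subunit read with cycloheximide and 5.18 with emetine. Divided by RefSeq gene lengths of 955 and 1582 bases, mt-Rnr1 had 588 reads per base and mt-Rnr2 1468 with cycloheximide. With emetine these levels were 853 and 2670 reads per base. The small-subunit rRNA thus stood at 0.400 of the per-base level of the large-subunit rRNA with cycloheximide and at 0.320 with emetine. Lengths for the human rRNAs were not used here.

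A pair of mouse tRNAs carried nearly all tRNA reads and had ratios in the range of the rRNAs. ENSMUST00000082387 had 287253 cycloheximide reads and 475839 emetine reads, 2.91-fold higher (interval 2.90 to 2.92). ENSMUST00000082389 had 247834 and 449591 reads, 3.19-fold higher (3.17 to 3.20). Its interval overlaps that of mt-Rnr2, while the ratio of ENSMUST00000082387 lay between those of the 2 rRNAs. They held 91.7% of the tRNA reads with cycloheximide and 94.8% with emetine. The RefSeq table lists tRNA genes of 59 to 75 bases, and whichever length in that range applies, each of the 2 had at least 2.245 times the reads per base of mt-Rnr2 in the cycloheximide library and the emetine library. In the same table TrnV fills the interval between the rRNA genes with 0 bases to spare on either side, TrnF ends 1 base before mt-Rnr1, and TrnL1 starts 0 bases after mt-Rnr2. The identifiers were not paired with these gene names, no source used here gives the rule for reads that span a boundary, and its part in the tRNA counts was not tested.

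The other 20 mouse tRNAs were also mostly higher with emetine, by less. They had 143 to 11552 reads with cycloheximide (median 1436) and 110 to 12829 with emetine (median 1435). Their sum was 1.83-fold higher (interval 1.803 to 1.848), against 2.94-fold (2.93 to 2.95) for all 22; setting the 2 most abundant aside was a choice made after seeing the data. The ratio of the 20 was 0.594 of that of the rRNA sum. The rRNAs had 59.2 reads per read of these tRNAs with cycloheximide and 99.6 with emetine. All 22 mouse tRNAs had at least 100 summed reads, and 7 of them (31.8%) were at least 2-fold higher with emetine, where 3.65% of all features and 5.81% of features without a coding region were. At 1.5-fold 16 of the 22 were higher, against 12.7% of all features and 17.1% of those without a coding region. At 4-fold 0 were, against 0.0642% and 0.0963%. No tRNA was at least 2-fold lower (1.66% of all features). The median scaled log2 ratio over the 22 was 0.86 (from -0.18 to 1.67), and the median over all features was 0.039.

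For 21 of the 22 mouse tRNAs the whole counting interval lay above 1, which also held for 38.4% of all features and 40.9% of those without a coding region. A ratio above 1 was found for 21 tRNAs, for 53.3% of all features and for 56.6% of those without a coding region. The exception was ENSMUST00000082394, with 219 cycloheximide reads and 110 emetine reads, a ratio of 0.883 (0.695 to 1.11). The next lowest was ENSMUST00000082420, with 375 and 272 reads, 1.27-fold higher (1.09 to 1.49). Among the 20, the ratios ran from 0.883 to 2.51 with a median of 1.803. The order of the tRNAs by count was nearly the same with both drugs (Spearman's rho 0.99 over 22 tRNAs that share library and depth), and the counts of the 20 spanned 80.8-fold with cycloheximide and 117-fold with emetine.

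**Figure D4:**
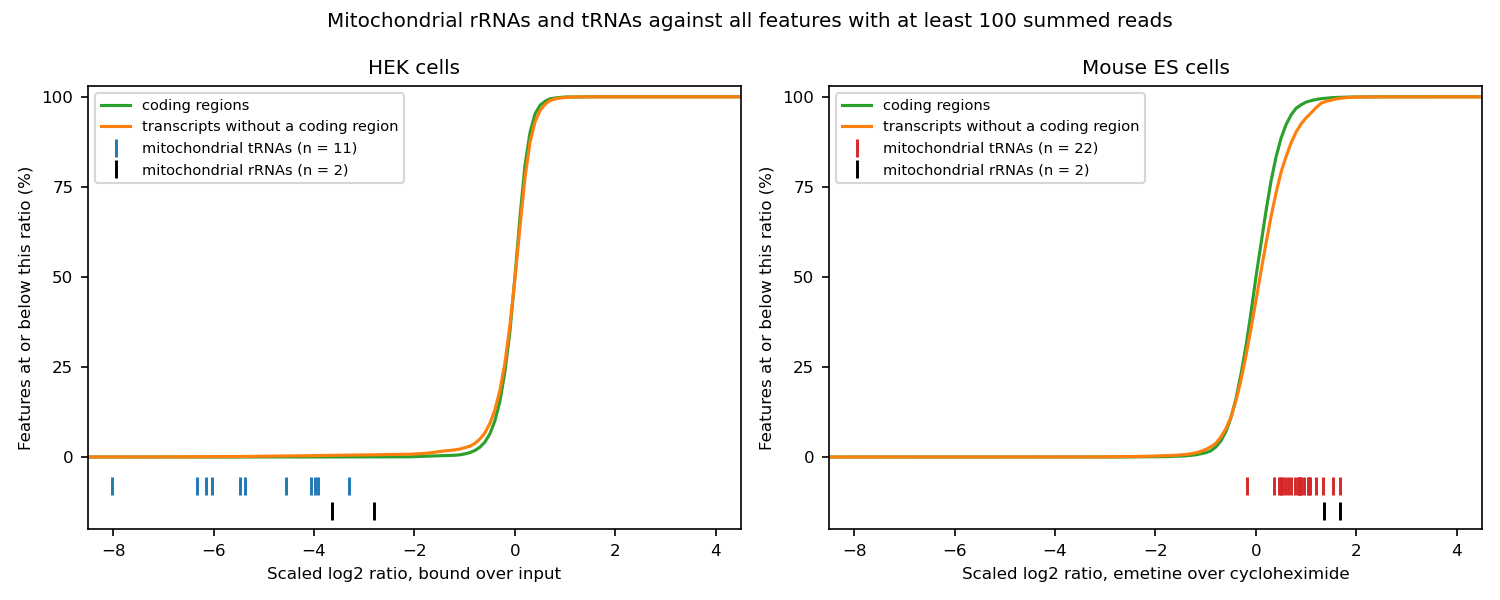
Cumulative percentage of coding regions and of transcripts without a coding region at or below each scaled log2 ratio (features of at least 100 summed reads), with ticks for the mitochondrial tRNAs (11 human, 22 mouse) and rRNAs (2 in each species). The human ticks lie from -8.02 to -2.80, below nearly all features; the mouse rRNA ticks lie at 1.35 and 1.68 and the tRNA ticks from -0.18 to 1.67, within the upper part of both curves apart from the lowest tRNA.

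The pairs differed in how rRNAs and tRNAs moved relative to each other. In HEK cells the tRNA sum was reduced more than the rRNA sum (43.7-fold against 10.9-fold). Of the 11 tRNAs with at least 100 reads, 10 had a lower ratio than MT-RNR2, as did 0.231% of all features with that minimum. For 7 of the 10 the interval lay wholly below that of MT-RNR2. The share of all features for which this held was not computed. In ES cells the tRNA sum and the rRNA sum were higher by similar factors (2.94-fold against 3.07-fold), and the similarity rested on the 2 most abundant tRNAs. The large-subunit rRNA differed more than the small-subunit rRNA in each pair, downward after capture and upward with emetine. The purification and the drugs were tested in different species with different preparations, and no test connects the pairs. In the human files 2 tRNAs shared their counts exactly with other transcripts, both with fewer than 100 reads, and in the mouse files 1 did. Nuclear copies of mitochondrial DNA exist in both genomes, and no source used here says how reads with several matches were counted, so all counts carry that uncertainty.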

How the data were processed

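Ribosome footprint libraries (RNase I digestion, linker ligation, reverse transcription, circularization and PCR, per the labels' protocols) were analysed from the raw read counts that the authors deposited for each library. There is a column for the transcript and 1 each for coding region, leader and trailer, per the file headers. The submitters' processing notes list CASAVA 1.8, Bowtie2 2.0.6 and TopHat2 2.0.7 with the builds mm10 and hg19, and state no role for them. No source used here gives the counting tool or annotation release.

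A feature was a transcript's coding region or, with none counted, the transcript itself. Scaled log2 ratios used a prior of 0.5 reads; folds of named RNAs used counts alone. Groups came from sample titles. The ratio calculation was checked on simulated counts with counting error only, which cannot show how far single libraries vary. No p-value was computed. Alternatives were total-count scaling, edgeR 4.0.16 TMM scaling, other minimums, priors, thresholds and denominators. Python 3.11.15 and scipy 1.17.1 were used.

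The members and lists were chosen with earlier results of these data known. Named tRNAs were the 2 most abundant and the 2 highest and 2 lowest ratios of each pair among those with at least 100 summed reads. The 2 rRNAs per species take their names from the list that defined the members. Mouse gene lengths and positions came from RefSeq's table of GRCm38.p6. A set of mitochondrial coding transcripts that had been planned was not used, because no table pairs transcript identifiers with genes.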

Additional observations from a re-analysis of the deposited data

How the results depend on the processing

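No paired analysis was possible because every condition is a single library. A value counts as moved once outside the counting interval of the main value (for a median, that of the middle tRNA), and a count when it changed by over 1.5 times. Of the class ratios, class counts and shares under the alternatives, 54 moved and 82 did not. The rRNA sum moved under every other scaling in both pairs. Its counting interval is thus narrower than the effect of the choice of scale. No log2 ratio of a class or of a named RNA changed sign under the alternatives run. Bound over input, the rRNA sum (log2 -3.45) was -3.25 with total-count scaling, -3.36 with TMM, -3.42 and -3.50 when coding regions of at least 30 and 500 reads set the scale, and -3.42 with whole coding transcripts. The tRNA sum (-5.45) was -5.25 with total counts, -5.36 with TMM, -5.37 without its most abundant tRNA and -5.04 without the 2 most abundant, which left a median of -4.57. With minimums of 30, 500 and 1 summed reads the tRNAs at least 2-fold lower numbered 19, 3 and 22 in place of 11. These counts differ because other numbers of tRNAs were compared. The share of all features at least 2-fold lower was not computed at these minimums, so the counts are a description only. With a minimum of 1 the median was -4.70. Emetine over cycloheximide, the rRNA sum (1.62) was 1.67 with total counts, 1.57 with TMM, 1.62 and 1.63 with scales from at least 30 and 500 reads and 1.56 with whole coding transcripts. The tRNA sum (1.55) was 1.60, 1.51, 1.57 (500 reads) and 1.4997 in that order, 1.57 without its most abundant tRNA and 0.87 without the 2 most abundant. At 1.5-fold 16 mouse tRNAs were higher (12.7% of all features and 17.1% of those without a coding region) and at 4-fold 0 (0.0642% and 0.0963%), in place of 7 at 2-fold (3.65% and 5.81%). The count at 2-fold was 8 with total counts, 6 with TMM and 5 with whole coding transcripts. It stayed at 7 with scales from at least 30 and 500 reads. The percentages of features are those of the main scale.

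Values follow in the order HEK input, HEK bound, cycloheximide and emetine. Set against coding-region counts, which do not contain these reads, there were 21.8, 1.97, 1.77 and 6.40 rRNA reads and 0.372, 0.00837, 0.358 and 1.24 tRNA reads per 100 coding reads, a ratio and not a share. With identical transcripts counted once the rRNAs held 11.6%, 1.24%, 0.850% and 2.70% and the tRNAs 0.198%, 0.00529%, 0.172% and 0.522%. Without the 10 most abundant other transcripts the rRNAs held 9.84%, 1.02%, 0.861% and 2.74%, and the tRNAs 0.168%, 0.00434%, 0.174% and 0.531%. Without the 2 most abundant tRNAs, chosen after seeing the data, the tRNAs held 0.0207%, 0.000722%, 0.0142% and 0.0268%. Counting depth limits the human tRNAs most: 11 of 22 had fewer than 100 reads.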
